A study of Homo sapiens with 6 samples.

Results

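The DOCK family of GTPase activators was followed in human TYK-nu cells, which the labels give as an ovarian cancer cell line. The set held 8 DOCK genes (DOCK1, DOCK4, DOCK5, DOCK6, DOCK8, DOCK9, DOCK10 and DOCK11) and ELMO1, a partner protein, found by gene symbol. These were 9 of 62260 gene rows. DOCK4 was chosen by its counts, which were higher in ZNFX1 KO than in WT, so its difference is described here without a test. The groups were ZNFX1 KO cells and wild type (WT) cells, with 3 libraries each, which the labels call biological replicates. Neither group had been treated with a drug, and both were labelled as batch 1. The labels give neither the way the knockout was made nor a second KO clone, so ZNFX1 loss and any other difference of these KO cells cannot be told apart. Nothing states that the replicates were separate cultures, and the p-values cover only the spread among libraries, which may be technical. In RNA from whole cultures, a change in the share of cells that express a gene and a change in RNA per cell cannot be told apart.

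DOCK proteins load GTP onto the small GTPases Rac and CDC42 and so switch them on. They do this through a catalytic DHR domain that is unrelated to that of the larger Dbl family of exchange factors. Rac drives the branched actin sheets at the leading edge of a moving cell, and CDC42 drives filopodia and polarity. The family falls into subfamilies A and B, which act on Rac and work with ELMO proteins, C, and D, which acts on CDC42. In carcinoma cells these proteins are known for their part in migration, invasion and the engulfment of dying cells.

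The libraries held 19115530 to 21036063 estimated fragments on gene rows. ZNFX1, the targeted gene, had 82.8 ± 17.3 CPM (gene fragments scaled to library size) in ZNFX1 KO and 149 ± 52.2 CPM in WT (SD, n = 3 each), a log2 fold change of -0.85 (SE 0.27, adjusted p = 0.218 by edgeR). Without WT 3 it was -1.01 (SE 0.25, adjusted p = 0.0468 by edgeR), and without WT 2 it was -0.53 (SE 0.21, adjusted p = 0.507 by edgeR). Leaving out WT 3 raised the genes called by edgeR from 103 to 1315. ZNFX1 mRNA was read in all KO libraries. Of 8 epithelial and ovarian cancer markers, 5 averaged below 1 TPM (a level per length), among them MUC16 at 0 in all 6 libraries, while KRT18 averaged 65.8 TPM. EPCAM, also among the 5, had 0 fragments in every KO library, against 31, 33.8 and 5.3 in WT 1, 2 and 3. The 8 markers summed to 76.4 to 95.9 TPM in ZNFX1 KO and 52.3 to 77.9 TPM in WT. Of 5 endothelial markers, TIE1 and CDH5 averaged 89.5 and 85.3 TPM, PECAM1 38.4 TPM, KDR 10.2 TPM and VWF 0.952 TPM. What this means for the cell type was not tested. Library pairs of a group differed by far more than counting noise, most of all WT 2 from WT 3 and ZNFX1 KO 1 from ZNFX1 KO 2.

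DOCK4 (ENSG00000128512.24, chromosome 7, 111726110 to 112206411, minus strand, GRCh38) encodes a subfamily B activator of Rac. Its start faces that of ZNF277, a zinc finger gene on the other strand, 177 bases away. The interval between these starts is shown because it lies just before the start of DOCK4, the member chosen for its difference. It is chr7:112206412-112206587 (GRCh38, from RefSeq's promoter table), read on the strand of DOCK4, so that transcription of DOCK4 starts just after its last base. Capitals mark the letters ACTACAATTCC, the core of an element that the factor ZNF143 is known to bind.

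DOCK4 to ZNF277 interval: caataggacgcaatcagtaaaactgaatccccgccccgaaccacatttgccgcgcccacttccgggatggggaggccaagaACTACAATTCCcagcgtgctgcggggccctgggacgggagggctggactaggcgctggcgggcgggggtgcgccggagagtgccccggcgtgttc

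This core was looked for after the sequence had been read. Searched on both strands, it was in 0.18% of 35116 annotated promoter windows of the same 176 bases before the start. GGGCGG, the GC box, matched 2 times and was in 37.7% of the windows. The CCAAT box, spelled CCAAT, did not match in this interval and was in 26.06% of the windows. The TATA box, spelled TATAAA, did not match either and was in 7.91%. None of these motifs overlaps another here. The interval was 66.5% G and C, against a median of 59.1% over the windows. These are matches of letters and no measure of binding.

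DOCK4 was at 4.61, 25.9 and 13.1 TPM in ZNFX1 KO 1, 2 and 3, against 2.13, 1.40 and 2.22 TPM in WT 1, 2 and 3. Every KO library was above every WT library, and the KO libraries spread far more widely than the WT ones. In fragments, DOCK4 had 1302, 5763.5 and 3222.5 in ZNFX1 KO 1, 2 and 3, against 585.4, 384.8 and 529.5 in WT 1, 2 and 3. The means were 174 ± 114 CPM in ZNFX1 KO and 24.5 ± 5.23 CPM in WT (SD, n = 3 each), a log2 fold change of 2.83 (SE 0.49), or 7.10-fold. When single libraries were left out, the fold was smallest without ZNFX1 KO 2, at a log2 value of 2.25 (SE 0.41), and largest without ZNFX1 KO 1, at 3.23 (SE 0.30). Since this contrast chose the gene, no p is given. For scale, 38 of 14166 tested genes, or 0.268%, were called higher in ZNFX1 KO by edgeR.

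ZNF277, across the printed interval, was at 6.57 ± 2.05 CPM in ZNFX1 KO and 7.31 ± 0.623 CPM in WT (SD, n = 3 each), a log2 fold change of -0.15 (SE 0.27, adjusted p = 0.805 by edgeR). IMMP2L, a mitochondrial inner membrane peptidase gene and the nearest tested gene on the far side of DOCK4, was at 12.4 ± 3.87 CPM in ZNFX1 KO and 13.4 ± 1.80 CPM in WT (log2 fold change -0.10, SE 0.25, adjusted p = 0.864 by edgeR). Both were chosen for their position after the data were seen, and neither passed the test.

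**Figure D1:**
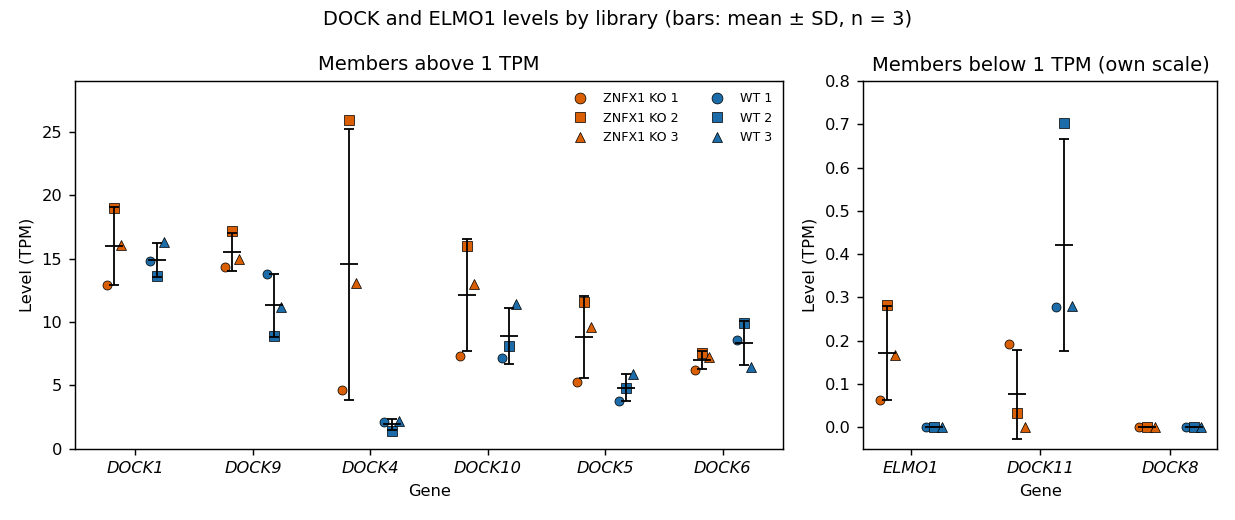
Level in TPM (y axis) of each gene (x axis) in each library, with ZNFX1 KO in orange to the left of WT in blue, symbols for libraries 1, 2 and 3, and bars for the mean ± SD (n = 3). DOCK4 lies between 4.61 and 25.9 TPM in ZNFX1 KO and between 1.40 and 2.22 TPM in WT, while the right panel, on its own scale, shows ELMO1 at 0 in WT and DOCK8 at 0 throughout.

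The deposited files also list transcripts apart from their genes, and 12 such transcripts of DOCK4 could be matched. They held 26.9%, 17.2% and 36.9% of the DOCK4 fragments in ZNFX1 KO 1, 2 and 3, against 29.7%, 38.2% and 37.2% in WT 1, 2 and 3. The share was lowest in ZNFX1 KO 2, where the gene row was highest. DOCK4-207, a coding transcript that GENCODE marks as incomplete at its start, was the best covered of them. DOCK4-207 was at 2.07, 5.42 and 8.57 TPM in ZNFX1 KO 1, 2 and 3, against 0.806, 1.20 and 1.73 TPM in WT 1, 2 and 3. Again every KO library lay above every WT library, but here ZNFX1 KO 3, not ZNFX1 KO 2, was highest. The log2 fold change of DOCK4-207 was 2.11 (SE 0.49), beside 2.83 for the gene row.

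The smaller DOCK4 transcripts were less even. DOCK4-214, a noncoding form from the far end of the gene, was at 2.71, 4.63 and 6.75 TPM in ZNFX1 KO 1, 2 and 3, against 1.05, 0 and 0 TPM in WT 1, 2 and 3. DOCK4-212, which begins near the start of the gene, was at 0, 2.42 and 2.24 TPM in ZNFX1 KO 1, 2 and 3, against 0.564, 0 and 0 TPM in WT 1, 2 and 3, so its groups overlapped. DOCK4-213, a retained intron form, averaged 0.395 ± 0.274 TPM in ZNFX1 KO and 0.0718 ± 0.0497 TPM in WT (SD, n = 3 each). These rows share exons with the gene row, and an estimate can move between them from library to library. Of 16 tested transcripts of the other members, edgeR called 0 and 1 had an unadjusted p under 0.05, in a fit of all gene and transcript rows that called 0.00544% of them. With all matched transcripts added to the gene, the log2 fold change of DOCK4 was 2.65 (SE 0.44).

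**Figure D2:**
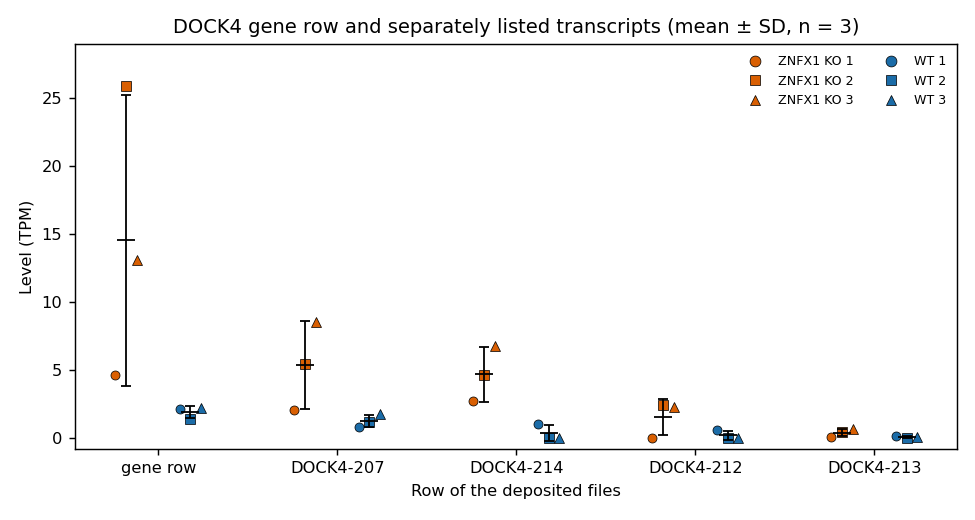
Level in TPM (y axis) of the DOCK4 gene row and its 4 tested transcript rows (x axis) in each library, with ZNFX1 KO in orange left of WT in blue and bars for the mean ± SD (n = 3). DOCK4-207 lies between 2.07 and 8.57 TPM in ZNFX1 KO and between 0.806 and 1.73 TPM in WT, and the order of ZNFX1 KO 2 and 3 differs between this row and the gene row.

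ELMO1 (ENSG00000155849.16, chromosome 7, 36854361 to 37449249, minus strand) is the scaffold that holds DOCK1-type activators at the membrane, and is best known from phagocytes. Its gene row had 4, 14 and 10 fragments in ZNFX1 KO 1, 2 and 3, against 0 in each WT library. The 28 KO fragments are 0.459 CPM over the group, against an upper limit of 0.050 CPM for WT (3 counts over the group, counting error only). On the gene row alone the KO level is 9.17-fold above this WT limit, at a level near the limit of detection. This fold takes the KO sum as it stands and leaves out its counting error and the spread among KO libraries. ELMO1 did not pass the filter on low counts. In fits where it passed, it did so through the KO libraries alone, so no p is given. ELMO1-213, a retained intron form listed apart, had 0, 2.8 and 2.0 fragments in ZNFX1 KO 1, 2 and 3, against 3.1, 3.0 and 2.0 in WT 1, 2 and 3, so fragments of the locus were not absent from WT. With its matched transcripts added, ELMO1 had 4, 16.8 and 12 fragments in ZNFX1 KO 1, 2 and 3, against 3.1, 3.0 and 2.0 in WT 1, 2 and 3. Every KO library was still above every WT library, but by little in ZNFX1 KO 1. The sums of 32.8 fragments in ZNFX1 KO and 8.1 in WT made a ratio of 4.0 after scaling to library size. Of 10 leukocyte markers, 8 averaged below 1 TPM, among them PTPRC, MS4A1 and ITGB2 at 0 in all 6 libraries. The markers summed to 2.42 to 6.25 TPM in ZNFX1 KO and 1.23 to 4.08 TPM in WT, and their part in the ELMO1 difference was not tested.

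DOCK11 needed its WT libraries, where it is high, to pass the filter on low counts, although ZNFX1 KO 1 also had 43.8 fragments. For this reason DOCK11 is described further on without a test. Of the other 5 tested members besides DOCK4, 0 passed edgeR's test after adjustment over all genes, against a background of 0.727% of all tested genes. DOCK5 alone, 1 of the 5, had an unadjusted p under 0.05, beside 15.1% of all genes. DESeq2 called 0 of the 5, and 4.09% of all genes. Their median log2 fold change was 0.40, or 0.23 with DOCK11 counted as well, against -0.01 over all genes. The libraries did not overlap in 1 of them (DOCK9, with ZNFX1 KO above), beside 20.2% of all tested genes in either direction, 9.39% with ZNFX1 KO above and 10.8% with ZNFX1 KO below. The values of each follow by subfamily.

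**Figure D3:**
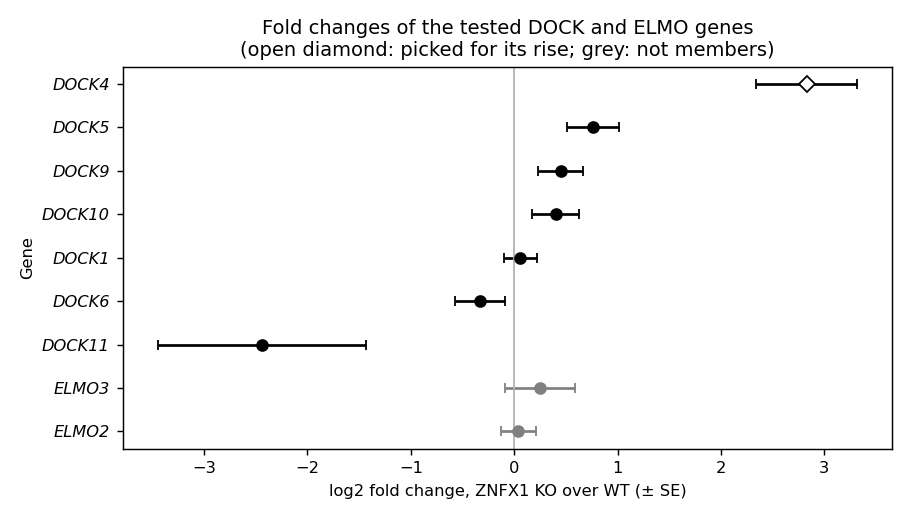
Log2 fold change, ZNFX1 KO over WT (x axis, bars ± SE), of the 7 tested members in black and of 2 related genes in grey (y axis). DOCK4, the open diamond, was picked for its rise and stands at 2.83, DOCK5, DOCK9, DOCK10, DOCK1 and DOCK6 lie between -0.33 and 0.76, and DOCK11 is at -2.44 with a wide error.

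In subfamily A, DOCK1 (ENSG00000150760.13, chromosome 10, 126905409 to 127452517, plus strand), the founding member, which acts on Rac after integrin signals and in engulfment, did not pass the test. It was at 12.9, 19.0 and 16.1 TPM in ZNFX1 KO 1, 2 and 3, against 14.8, 13.6 and 16.3 TPM in WT 1, 2 and 3. The groups overlapped, and the log2 fold change of 0.06 (SE 0.16, adjusted p = 0.884 by edgeR) was smaller than its error and turned to -0.01 when libraries were scaled by their totals alone. DOCK5 (ENSG00000147459.18, chromosome 8, 25184723 to 25418082, plus strand), a Rac activator known from osteoclasts, was at 5.23, 11.6 and 9.63 TPM in ZNFX1 KO 1, 2 and 3. In WT 1, 2 and 3 it was at 3.76, 4.83 and 5.88 TPM. ZNFX1 KO 2 and 3 were above all WT libraries, while ZNFX1 KO 1 lay among them. The log2 fold change of DOCK5 was 0.76 (SE 0.25, adjusted p = 0.238 by edgeR), and 1.00 (SE 0.20, adjusted p = 0.0897) without ZNFX1 KO 1, so it did not pass either way. With other single libraries left out, the log2 fold change of DOCK5 went down to 0.62.

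In subfamily C, DOCK6 (ENSG00000130158.14, chromosome 19, 11199295 to 11262481, minus strand), known as an activator of both Rac and CDC42, was at 6.18, 7.55 and 7.21 TPM in ZNFX1 KO 1, 2 and 3, against 8.59, 9.92 and 6.46 TPM in WT 1, 2 and 3. WT 3 lay within the KO range, so the groups overlapped. The log2 fold change was -0.33 (SE 0.24; adjusted p = 0.538 by edgeR). DOCK8 (ENSG00000107099.18, chromosome 9, 214854 to 465259, plus strand), the CDC42 activator of lymphocytes whose loss causes an immune deficiency, had 0 fragments on its gene row in all 6 libraries, which allows up to 0.0248 CPM (3 counts over all libraries). Its retained intron transcript DOCK8-216 had between 0 and 7.0 fragments in ZNFX1 KO libraries and between 2.9 and 8.1 in WT libraries.

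In subfamily D, DOCK9 (ENSG00000088387.22, chromosome 13, 98793429 to 99086625, minus strand), the first CDC42 activator known in the family, was at 14.3, 17.2 and 15.0 TPM in ZNFX1 KO 1, 2 and 3, against 13.8, 8.90 and 11.2 TPM in WT 1, 2 and 3. Every KO library was above every WT library, but WT 1 came close to the KO libraries, at 165 CPM beside 167 CPM in ZNFX1 KO 1. The log2 fold change of DOCK9 was 0.45 (SE 0.22, adjusted p = 0.368 by edgeR), and 0.72 (SE 0.20, adjusted p = 0.304) without WT 1. With other single libraries left out, the log2 fold change of DOCK9 went down to 0.34. DOCK10 (ENSG00000135905.21, chromosome 2, 224765090 to 225042445, minus strand), a relative known from B cells and from amoeboid invasion, was at 7.32, 16.0 and 13.0 TPM in ZNFX1 KO 1, 2 and 3, against 7.15, 8.14 and 11.4 TPM in WT 1, 2 and 3. As for DOCK5, ZNFX1 KO 1 stood among the WT libraries and the other KO libraries above them. Its log2 fold change was 0.40 (SE 0.23, adjusted p = 0.433 by edgeR).

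DOCK11 (ENSG00000147251.16, chromosome X, 118495898 to 118686163, plus strand), the X-linked member of subfamily D, which acts on CDC42 and is known from blood cells, was the sparsest of the tested members. It had 43.8, 6.0 and 0 fragments in ZNFX1 KO 1, 2 and 3, against 61.2, 155.2 and 53.6 in WT 1, 2 and 3. The groups did not overlap, with ZNFX1 KO 1 closest to WT and WT 2 the highest. DOCK11 averaged 0.81 ± 1.15 CPM in ZNFX1 KO and 4.47 ± 2.95 CPM in WT (SD, n = 3 each). The log2 fold change was -2.44 (SE 1.01), -4.81 (SE 1.01) without ZNFX1 KO 1 and -1.76 (SE 1.05) without WT 2, given as a description. Its coding transcript DOCK11-204, listed apart, had 10.2, 0 and 14 fragments in ZNFX1 KO 1, 2 and 3, against 12.8, 43.8 and 8.4 in WT 1, 2 and 3. ZNFX1 KO 3, at 0 on the gene row, thus had fragments here, and the groups overlapped. With the transcripts joined, the log2 fold change of DOCK11 was -2.16 (SE 0.73).

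**Figure D4:**
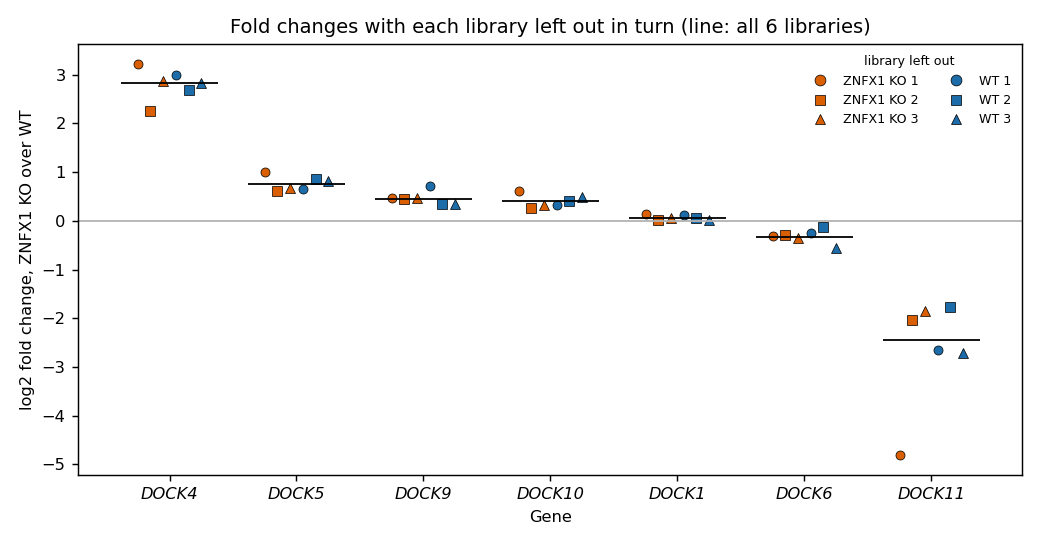
Log2 fold change, ZNFX1 KO over WT (y axis), of each tested member (x axis) with 1 library left out in turn (orange: a ZNFX1 KO library; blue: a WT library) and with all 6 (black line). DOCK4 stays between 2.25 and 3.23, and DOCK11 moves between -4.81 and -1.76.

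In both groups DOCK1 had the highest mean level per length, at 16.0 ± 3.03 TPM in ZNFX1 KO and 14.9 ± 1.35 TPM in WT (SD, n = 3 each). The ZNFX1 KO order was DOCK1, DOCK9, DOCK4, DOCK10, DOCK5, DOCK6, ELMO1, DOCK11 and DOCK8. Each neighbour in it overlapped the next over the libraries, except for DOCK6 and ELMO1, at 6.98 and 0.171 TPM. The WT order was DOCK1, DOCK9, DOCK10, DOCK6, DOCK5, DOCK4 and DOCK11, with DOCK8 and ELMO1 at 0. In WT the first 4 overlapped in turn, while DOCK5 at 4.82 ± 1.06 TPM and DOCK4 at 1.92 ± 0.452 TPM were apart from their neighbours.

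Other genes of the family that were examined were DOCK2, DOCK3, ELMO2 and ELMO3. DOCK2, the Rac activator of leukocytes, had 0 fragments in all libraries, and DOCK3, the neuronal relative of DOCK4, had 1 fragment at most in any library. ELMO2, the ELMO form with most RNA here, was at 5.92 ± 1.11 TPM in ZNFX1 KO and 5.57 ± 0.628 TPM in WT (SD, n = 3 each; log2 fold change 0.04, SE 0.17, adjusted p = 0.920 by edgeR). ELMO3 was at 0.349 ± 0.0730 TPM in ZNFX1 KO and 0.280 ± 0.0674 TPM in WT (log2 fold change 0.25, SE 0.34, adjusted p = 0.741 by edgeR).

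RAC1, the main substrate of subfamilies A and B, was at 78.2 ± 13.7 TPM in ZNFX1 KO and 64.7 ± 10.2 TPM in WT (SD, n = 3 each; log2 fold change 0.20, SE 0.16, adjusted p = 0.561 by edgeR).

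Among adaptors and partners that bring DOCK proteins to the membrane, edgeR called 0 of 20 tested genes, 4 had an unadjusted p under 0.05 (20.0%, beside 15.1% of all genes), and DESeq2 called 2 as lower, as it did 2.41% of all genes. Their median log2 fold change was 0.03. PXN, the focal adhesion scaffold paxillin, was at 60.4 ± 4.70 TPM in ZNFX1 KO and 91.9 ± 7.57 TPM in WT (SD, n = 3 each; log2 fold change -0.62, SE 0.18, adjusted p = 0.182 by edgeR). PXN was below all WT libraries in all KO libraries. BCAR1, the p130Cas protein that links integrins to CRK and DOCK1, was at 74.0 ± 11.0 TPM in ZNFX1 KO and 103 ± 11.9 TPM in WT (log2 fold change -0.53, SE 0.23, adjusted p = 0.331 by edgeR).

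The actin effectors of Rac and CDC42 also held 0 called genes by edgeR among 29 tested, with 9 at an unadjusted p under 0.05 (31.0%, beside 15.1% of all genes) and 2 called as lower by DESeq2 (2.41% of all genes were). Their median log2 fold change was -0.03. Of the 9, DIAPH2, BAIAP2, CDC42EP4, ABI1, PAK1, WASF2 and LIMK2 were lower in ZNFX1 KO, and CDC42BPA and NCKAP1L were higher. NCKAP1L had 29, 22.3 and 19 fragments in ZNFX1 KO 1, 2 and 3, against 3, 8.4 and 1.4 in WT 1, 2 and 3. It thus passed the filter on low counts through its KO libraries alone, so its p carries no weight. The 9 genes and the 31.0% still count NCKAP1L. CFL1 and ARPC2, given next for their level, were not among the 9. The cofilin gene CFL1, the most abundant, was at 436, 653 and 663 TPM in ZNFX1 KO 1, 2 and 3, against 283, 178 and 643 TPM in WT 1, 2 and 3. WT 3 reached the KO range, and the log2 fold change of CFL1 was 0.65 (SE 0.35, adjusted p = 0.408 by edgeR) with all libraries and 1.14 (SE 0.28, adjusted p = 0.0452) without WT 3. The latter was the highest value with a single library left out, and the lowest was 0.36. Over all genes, 1315 were called without WT 3, against 103 with all libraries. ARPC2, a subunit of the ARP complex that branches actin, had a log2 fold change of 0.22 (SE 0.17, adjusted p = 0.562 by edgeR).

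Of 19 tested Dbl-family activators of the same GTPases, edgeR called 0, DESeq2 called 1 as lower (2.41% of all genes), and 4 had an unadjusted p under 0.05 (21.1%, beside 15.1% of all genes). Their median log2 fold change was -0.02. ECT2, the activator of cell division, and ITSN1, a CDC42 activator of endocytic sites, had log2 fold changes of 0.48 (SE 0.23, adjusted p = 0.364 by edgeR) and 0.42 (SE 0.18, adjusted p = 0.320 by edgeR). Of 19 tested inhibitors of these GTPases, the GAPs and GDIs, edgeR called 0 and DESeq2 2 as higher (1.67% of all genes), and 5 had an unadjusted p under 0.05 (26.3%, beside 15.1% of all genes). Their median log2 fold change was 0.03. ARHGDIB, a GDI that holds GTPases in the cytosol and is best known from blood cells, was at 113, 113 and 116 TPM in ZNFX1 KO 1, 2 and 3, against 46.6, 48.4 and 92.1 TPM in WT 1, 2 and 3. Every KO library was above every WT library, with WT 3 the nearest. Its log2 fold change was 0.89 (SE 0.21, adjusted p = 0.116 by edgeR), and 1.13 (SE 0.17, adjusted p = 0.0179) without WT 3. With other single libraries left out, the log2 fold change of ARHGDIB went down to 0.79. The fit without WT 3 called 1315 genes, against 103 with all libraries. ARHGDIA, the ubiquitous relative of ARHGDIB, had a log2 fold change of 0.32 (SE 0.18, adjusted p = 0.428 by edgeR).

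The genes whose log2 CPM followed that of DOCK4 most closely over the 6 libraries, among the 10612 tested genes whose average log2 CPM reached 2, were RNF152, KLHL20, PTPRK, GBE1 and MTMR10. Their Pearson correlations with DOCK4 were 0.997, 0.992, 0.992, 0.989 and 0.988, given as a description of these 6 shared libraries, with no test because likeness to DOCK4 chose the genes. RNF152, a lysosomal ubiquitin ligase, was at 63.8, 118 and 102 CPM in ZNFX1 KO 1, 2 and 3, against 50.2, 42.3 and 44.7 CPM in WT 1, 2 and 3. Its KO libraries stood in the same order as those of DOCK4. Its log2 fold change of 1.05 was smaller than that of DOCK4, as were those of GBE1, the glycogen branching enzyme, at 0.98, and PTPRK, a receptor phosphatase, at 0.96. MTMR10, a myotubularin relative, and KLHL20, a ubiquitin ligase adaptor, were at 0.52 and 0.41.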

How the data were processed

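RNA of 3 ZNFX1 KO and 3 WT samples was made into strand-specific libraries, per the labels. The deposited files give, per row, estimated counts of fragments and TPM values that the authors obtained from Salmon, per the labels. The submitters' processing notes also list FastQC, Trimmomatic and DESeq2. Build, annotation and strand setting: not given in the sources used here. Each file has 62260 gene rows, all named by a gene table, and 134909 transcript rows, which held 9.93% to 10.73% of fragments. Of these, 103869 could be matched to a gene of GENCODE 29 (GRCh38), the source of coordinates. No column of another sample was present.

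Estimated counts on gene rows were rounded, filtered with filterByExpr (14166 genes) and scaled by TMM. They were tested with edgeR 4.0.16 (quasi-likelihood test, two-sided, R 4.3.3), on genotype alone, and p-values were adjusted over all genes (Benjamini-Hochberg, threshold 0.05). SE was taken as the size of the log2 fold change over the root of F. CPM use TMM-scaled totals. The test was checked on simulated counts. Transcript rows were tested in 1 fit with the gene rows (36792 rows, 2 called, or 0.00544%). Of 22626 transcript rows edgeR called 0, with 1153 at an unadjusted p under 0.05. Of the 16 tested transcript rows of members other than DOCK4 it called 0, with 1 at an unadjusted p under 0.05.

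Members, gene lists and tests were chosen with earlier results of these data known. Named genes were the DOCK and ELMO genes, ZNFX1, the called genes of each list (at most 3 per direction) or else its 2 most abundant, and the 5 most correlated with DOCK4. Others are said to be chosen afterwards, and some items are not reported here. Alternatives were DESeq2 size factors, library totals, no filter, a filter of 1 CPM in 3 libraries, DESeq2 1.42.0, limma-voom (3.58.1), an offset for effective length, limma with TPM on a log2 scale (pseudocount 1 or 0.1), a replicate block, joined transcripts and leaving out each library. Promoter sequences for 7 of 9 members were in RefSeq's table (GRCh38.p14), of which 1 was used. The fibroblast markers, 6 in all, averaged below 1 TPM each.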

Additional observations from a re-analysis of the deposited data

How the results depend on the processing

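DOCK4 kept a positive log2 fold change in all 17 alternatives, between 2.15 (limma on log2(TPM + 1), a scale that understates low genes) and 3.23. Since DOCK4 was chosen for its rise and its groups did not overlap, this sign could hardly turn and is no support for the rise. The direction also held in all 17 for DOCK5, DOCK6, DOCK9 and DOCK10. With library totals alone DOCK1 turned to -0.01 and ELMO2 to -0.02, and IMMP2L ranged from -0.38 to 0.08 without single libraries, turning positive without ZNFX1 KO 2. Of the members other than DOCK4, 1 was called (ELMO1) with no filter, and between 0 and 1 when libraries were left out (1, again ELMO1, without WT 3), but ELMO1 entered these tests through its KO libraries alone. ARHGDIB was called in 3 of 17 alternatives, ZNFX1, CFL1 and PXN in 1 each. The count of called genes, 103, was 602 with no filter, 579 by DESeq2, 187 with joined transcripts, 22 by limma on log2(TPM + 1), and between 2 (without ZNFX1 KO 2) and 1315 (without WT 3) when libraries were left out, so the background share rests on single libraries. The replicate numbers showed no clear pairing: same-numbered deviations correlated at 0.129, -0.0405 and 0.00691, and unlike-numbered ones at -0.096 to 0.0927. With 3 libraries per group these values cannot exclude pairing. With the replicate number as a block 14 genes were called, and 0 members other than DOCK4. Depth limits ELMO1, DOCK8 and DOCK11. The limits given for ELMO1 and DOCK8 cover counting error only. The cause of the shifts was not tested.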

Other observations

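A gene of actin regulation and a gene of engulfment were chosen after their values were seen. Both were already counted above among the genes that DESeq2 called lower, DIAPH2 with the actin effectors and ADGRB1 with the adaptors and partners. DIAPH2, a formin that extends straight actin filaments, was at 62.8 ± 6.18 CPM in ZNFX1 KO and 116 ± 20.1 CPM in WT (SD, n = 3 each), with a log2 fold change of -0.89 (SE 0.18, adjusted p = 0.0776 by edgeR, range 0.00167 to 0.402 over 17 alternatives). ADGRB1, a receptor for dying cells that signals through ELMO and DOCK1, was at 0.559, 0.765 and 0.564 TPM in ZNFX1 KO 1, 2 and 3, against 0.971, 1.73 and 1.33 TPM in WT 1, 2 and 3. All KO libraries were lower, and its log2 fold change of -1.15 (SE 0.27, adjusted p = 0.116 by edgeR, range 0.0106 to 0.440 over 17 alternatives) did not pass by edgeR with the filter on low counts. Both passed by DESeq2, with adjusted p of 0.00167 for DIAPH2 and 0.0106 for ADGRB1. With edgeR and no filter both had an adjusted p of 0.0287, and without WT 3 they had 0.0229 and 0.0352. Each of these settings called more genes than the main fit. Over all genes, DESeq2 called 579, edgeR with no filter 602 and edgeR without WT 3 1315, against 103 in the main fit.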
